A study of Arabidopsis thaliana with 6 samples.

Results

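The mitochondrial genes nad4, nad4L and ccb382 were followed across 6 Affymetrix ATH1 arrays of Arabidopsis thaliana leaf RNA. Each gene was read by the probe set that the array annotation assigns to it alone. These are 3 of 23 probe sets, for 3 of 16 genes, that name 1 mitochondrion-encoded gene, among 22810 probe sets in all. They were selected by gene name, with earlier results of these data known.

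The tested plants were the pad4 est1b double mutant, labelled pad4-1 est1b-1 and described as a knockout in Col-0. They were set against the pad4-1 single mutant in strain Col (stock N3806), so both groups lack PAD4, which promotes salicylic acid signalling in immunity, and no wild type was analysed here. Each genotype had 3 arrays. Seeds were stratified for 24 h, and plants grew on soil at 22 °C, for 2 weeks under high humidity and 3 weeks under lower humidity. The labels give stage 5.10 and developed rosette leaves for the 3 pad4 est1b samples and pad4 replicate 1, and stage 3.90 and leaves for pad4 replicates 2 and 3. Stage 3.90 thus occurs in pad4 alone, so stage and genotype are partly confounded. Nothing in the labels says whether replicates were separate plants or how many plants were pooled, so the p-values cover only array-to-array spread, which may be technical.

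Complex I, the NADH dehydrogenase of the inner mitochondrial membrane, passes electrons from NADH to ubiquinone and pumps protons. Its membrane arm is built partly from subunits encoded in the mitochondrial genome, among them NAD4, which belongs to the proton-pumping antiporter-like subunits, and NAD4L, a small hydrophobic subunit. The gene ccb382, listed by RefSeq as ccmFN1, encodes a part of the haem lyase CcmF, which attaches haem to cytochrome c and cytochrome c1. In Arabidopsis this lyase is split over several mitochondrial genes, including ccb203 (ccmFN2) and ccb452 (ccmFC). Mature plant mitochondrial mRNAs mostly lack long poly(A) tails, and adding a tail marks an RNA for decay in that organelle. The labelling procedure named in the labels, 3' IVT Express, starts from poly(A). Chromosome 2 of the nuclear genome also carries a large copy of mitochondrial DNA, so a probe set annotated to 1 mitochondrial gene may still read transcripts of a nuclear copy. On the RefSeq mitochondrial genome the nearest coding neighbours are ccmFC and mttB for nad4, cox3 and atp4 for nad4L, and ccmC and cox3 for ccb382, so no 2 of the members lie next to each other.

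The deposited signals are linear probe set intensities scaled so that each array has a trimmed mean of about 100. Summed over an array, the signal was between 3405664 and 3894818 units, and array medians were between 21.2 and 31.6. The leaf markers RCA, the rubisco activase, and LHCB4.2, a light-harvesting protein, lay between 4990 and 9805 units on every array, whereas the root gene PYK10 stayed at or below 12.4. No probe set is assigned to PAD4 alone, and the genotypes were taken from the labels without a check. The mean log2 3'/5' ratio of an actin and a GAPDH control pair, a measure of RNA integrity, was 1.37, 1.82 and 1.75 in pad4 est1b replicates 1, 2 and 3, and 1.21, 1.63 and 2.00 in pad4 replicates 1, 2 and 3.

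The nad4 signal was 1.80-fold higher in pad4 est1b than in pad4 on the log2(signal + 10) scale, and every pad4 est1b array lay above every pad4 array. The ccb382 signal was 1.67-fold higher, with groups that overlapped, and that of nad4L was 0.80-fold, also with overlap. None of the 3 passed the test over all 12804 probe sets kept, those with a mean of at least 20 units over the 6 arrays. By limma with Benjamini-Hochberg adjustment the adjusted p was 1.00 for each. In that fit 5 probe sets (0.0391%) were called, all of them higher in pad4 est1b. In RNA of whole leaves, fewer mitochondria or cells of a type and less RNA in each cannot be told apart.

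For nad4 the signal was 423, 209 and 248 units in pad4 est1b replicates 1, 2 and 3, against 163, 122 and 174 units in pad4 replicates 1, 2 and 3. The array of pad4 est1b replicate 1 was the highest of all and pad4 replicate 2 the lowest, and the groups did not overlap. The means were 293 ± 114 units in pad4 est1b and 153 ± 27.4 units in pad4 (SD, n = 3 each). The log2 fold change was 0.85 ± 0.32 (SE), with a 95% confidence interval from 0.11 to 1.59. The unadjusted p of nad4 by limma was 0.030. It ranked 358 among the 12804 probe sets, of which 4.44% had an unadjusted p under 0.05. Of the probe sets kept, 9.81% had groups that did not overlap, 6.41% with pad4 est1b higher, and 2.05% had a log2 fold change at least that of nad4. The spread among the pad4 est1b arrays was wide: replicate 1 stood at 1.85 times the mean of the other pair. Without that array the log2 fold change of nad4 was 0.56 (adjusted p = 1.00 by limma). Among the arrays labelled stage 5.10, where pad4 replicate 1 alone stands for pad4, it was 0.75.

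For ccb382 the signal was 231, 102 and 108 units in pad4 est1b replicates 1, 2 and 3, against 105, 73.1 and 61.8 units in pad4 replicates 1, 2 and 3. As for nad4, pad4 est1b replicate 1 was the highest array. The groups overlapped, because pad4 replicate 1 lay between pad4 est1b replicates 2 and 3. The means were 147 ± 72.7 units in pad4 est1b and 80.0 ± 22.4 units in pad4 (SD, n = 3 each). The log2 fold change was 0.74 ± 0.36 (SE), with a 95% confidence interval from -0.10 to 1.57 and an unadjusted p of 0.076 by limma. A value at least as high was found for 3.11% of the probe sets kept. Without pad4 est1b replicate 1, which stood at 2.20 times the mean of the other pad4 est1b arrays, it was 0.38 (adjusted p = 1.00 by limma). Among the arrays labelled stage 5.10, where pad4 replicate 1 alone stands for pad4, it was 0.35 (adjusted p = 0.98 by limma).

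For nad4L the signal was 11.4, 20.6 and 16.8 units in pad4 est1b replicates 1, 2 and 3, against 16.1, 16.5 and 38.6 units in pad4 replicates 1, 2 and 3. Here pad4 replicate 3 was the highest array, at 2.37 times the mean of the other pad4 arrays, and pad4 est1b replicate 1 was the lowest. The remaining 4 arrays lay between 16.1 and 20.6 units in both genotypes. The means were 16.3 ± 4.64 units in pad4 est1b and 23.8 ± 12.9 units in pad4 (SD, n = 3 each), a log2 fold change of -0.31 ± 0.32 (SE) with a 95% confidence interval from -1.06 to 0.43. A value as low or lower was found for 10.4% of the probe sets kept. Without pad4 replicate 3 the log2 fold change was -0.02 (adjusted p = 0.99 by limma). Among the arrays labelled stage 5.10, with pad4 replicate 1 alone for pad4, it was -0.0075. nad4L was dim: its mean over the 6 arrays was 20.01 units, just above the minimum of 20, and 2 arrays of each genotype lay below it. Without pad4 replicate 3 that mean was 16.28 units, below the minimum. The place of nad4L among the probe sets kept thus hung on the array that also set its fold change. The deposited values carry no detection calls, so it is not known on how many arrays this transcript was detected.

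**Figure D1:**
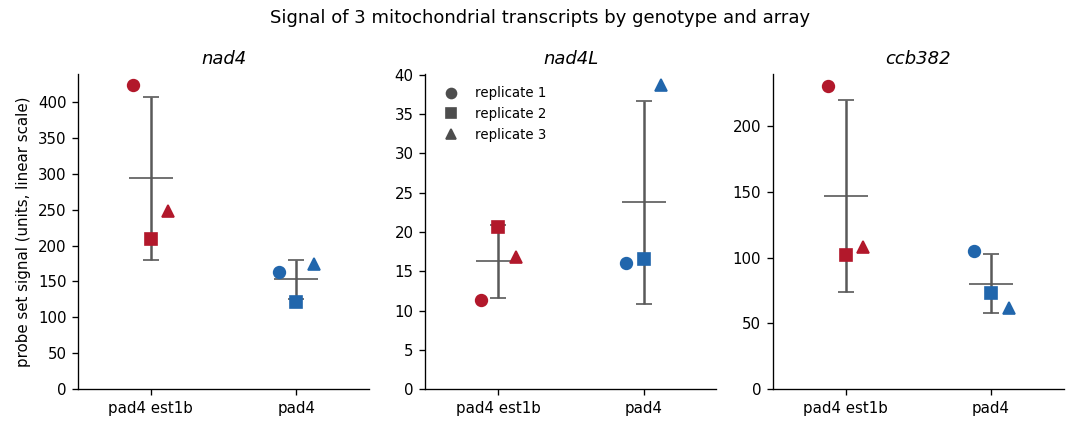
Probe set signal (linear units, vertical axis from 0, with its own scale in each panel) of nad4, nad4L and ccb382 in pad4 est1b (red) and pad4 (blue). Symbols are single arrays by replicate number and grey bars are mean ± SD (n = 3). For nad4 the lowest pad4 est1b array (209) lies above the highest pad4 array (174), whereas the groups overlap for nad4L and ccb382, and pad4 est1b replicate 1 is the highest array for nad4 and ccb382 and the lowest for nad4L.

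The arrays differed also in RNA integrity. The array of pad4 est1b replicate 1, highest for nad4 and ccb382 and lowest for nad4L, had the second lowest control 3'/5' ratio (1.37), and pad4 replicate 1, which stood apart for no member, had the lowest (1.21). The array highest for nad4L and lowest for ccb382, pad4 replicate 3, had the highest ratio of the 6 (2.00). In pad4, replicate 3 minus replicate 1 was 0.09 for nad4, 0.90 for nad4L and -0.68 for ccb382 on the log2(signal + 10) scale. In pad4 est1b the same differences were -0.75 for nad4, 0.32 for nad4L and -1.02 for ccb382. In both genotypes, then, nad4L was higher and ccb382 lower in replicate 3 than in replicate 1, while nad4 had no common direction. With the control ratio as a covariate, a fit added after the arrays had been seen, the log2 fold changes were 0.87 for nad4, -0.35 for nad4L and 0.78 for ccb382. The adjusted p by limma was then 0.30 for nad4, 0.71 for nad4L and 0.27 for ccb382. What part RNA integrity had in the members' signals was not tested further.

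The array's control probe set for 25S ribosomal RNA, an RNA that like mitochondrial mRNA lacks a long poly(A) tail, also varied. It had 35.9, 1356 and 728 units in pad4 est1b replicates 1, 2 and 3, against 21.3, 430 and 248 units in pad4 replicates 1, 2 and 3. The groups overlapped, and both replicate 1 arrays lay far below the others. The array highest for nad4 and ccb382, pad4 est1b replicate 1, was thus among the lowest for this control. Its part in the members' signals was not tested.

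Of the other mitochondrion-encoded genes 13 had a probe set of their own, with 20 probe sets, and 8 of these for 6 genes were bright enough to test. None passed (0 of 8, limma; 0 also at an unadjusted p under 0.05). Their median log2 fold change was -0.18, against 0.03 over all 12804 probe sets kept, with 3 higher and 5 lower in pad4 est1b. That median counts nad1 by 3 probe sets. With only the brightest probe set of each of the 6 genes it was 0.10, with 3 higher and 3 lower. These genes thus had no common direction. The members nad4 and ccb382 had the 2 largest values of the 11 probe sets, and nad4L lay among the negative ones.

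The other complex I genes bright enough to test, nad1 and nad5, gave negative values on the probe sets kept. The gene nad1, which encodes a membrane arm subunit and whose mRNA is joined from separately transcribed pieces, was read by 3 probe sets bright enough to test, with log2 fold changes of -0.38, -0.43 and -0.42 (adjusted p = 1.00 by limma for each). The first of these had 26.1, 28.3 and 26.8 units in pad4 est1b replicates 1, 2 and 3, against 44.1, 34.9 and 36.4 units in pad4 replicates 1, 2 and 3. Those groups did not overlap, unlike those of the other pair of nad1 probe sets, and groups apart in that direction were found for 3.4% of the probe sets kept. The antiporter-like subunit gene nad5 had 21.9 ± 6.88 units in pad4 est1b and 27.9 ± 4.92 units in pad4 (SD, n = 3 each), a log2 fold change of -0.26. Of the complex I genes, nad2, nad6, nad7 and nad9 had no probe set with a mean of 20 units and were not tested at that filter. In the fit without it their log2 fold changes were 0.47, -0.04, 0.36 and 0.14. The nad1 probe sets under the filter had -0.12, 0.16, 0.29 and 0.06, and that of nad5 had -0.01. Not all complex I values were negative, then, though these were dim.

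Of the cytochrome c maturation genes, ccb452 was the only one beside ccb382 bright enough to test. It had 70.9, 52.0 and 69.2 units in pad4 est1b replicates 1, 2 and 3, against 53.6, 33.8 and 60.5 units in pad4 replicates 1, 2 and 3. The groups overlapped, and its log2 fold change was 0.34 ± 0.28 (SE). The genes ccb203 and ccb206 averaged 3.48 and 15.3 units in pad4 est1b, and 7.24 and 15.4 units in pad4, under the filter in both. Among the remaining genes, cox1, the catalytic subunit gene of cytochrome c oxidase, had a log2 fold change of 0.37, cox2 of the same complex -0.10, and orfX (mttB), a gene of the twin-arginine transport family, 0.30.

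**Figure D2:**
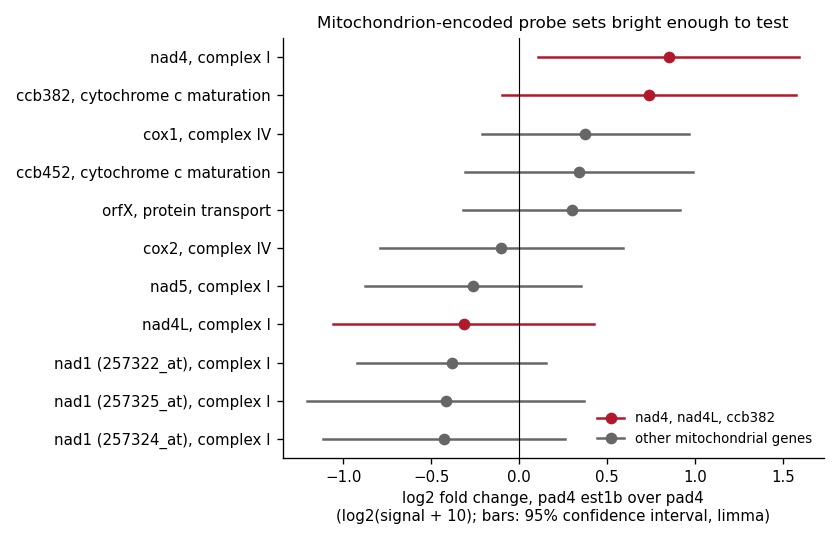
Log2 fold change, pad4 est1b over pad4, on log2(signal + 10) for the 11 mitochondrion-encoded probe sets bright enough to test (points), with 95% confidence intervals from limma (bars); red marks nad4, nad4L and ccb382 and grey the other mitochondrial genes. The interval of nad4 (0.11 to 1.59) lies above 0 before adjustment and those of the other 10 include 0.

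The deviation of each probe set from its own mean over the 6 arrays showed where the members parted. In pad4 est1b replicate 1, nad4 lay 1.00 and ccb382 1.08 above their means on the log2(signal + 10) scale, while nad4L lay at -0.44 and the 3 nad1 probe sets between -0.59 and -0.23. In pad4 replicate 3, nad4L lay 0.75 above its mean, nad1 between 0.13 and 0.83, and ccb382 at -0.67. Across the 6 arrays Pearson's r was 0.88 between nad4 and ccb382, -0.42 between nad4 and nad4L, and -0.76 between ccb382 and nad4L. For nad4L it was 0.97 with the third nad1 probe set and 0.89 with cox2, both dim, and for nad4 it was 0.81 with ccb452. These correlations are descriptions over 6 arrays that share their scaling and their differences in RNA integrity.

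**Figure D3:**
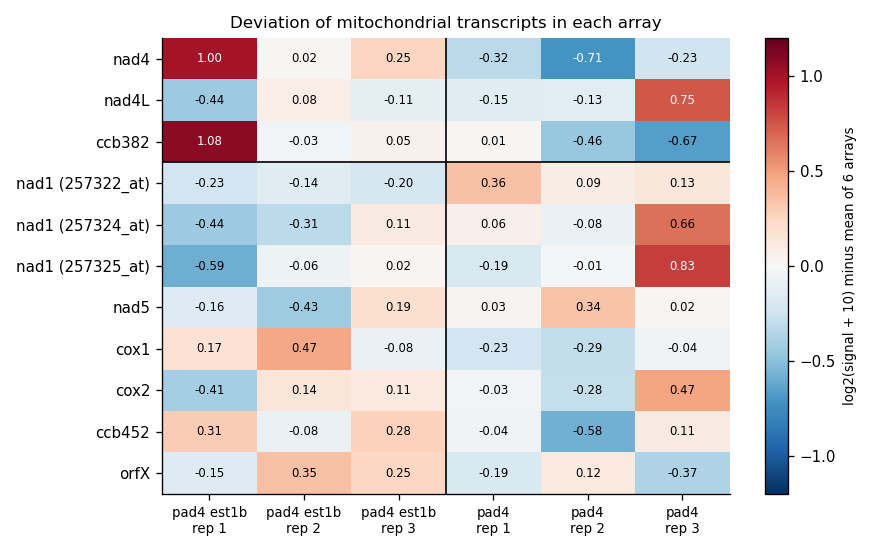
Log2(signal + 10) of each mitochondrion-encoded probe set minus its mean over the 6 arrays, by array (columns, pad4 est1b left of the vertical line and pad4 right of it). Rows above the horizontal line are nad4, nad4L and ccb382; red is above the mean and blue below. In pad4 est1b replicate 1 nad4 (1.00) and ccb382 (1.08) are high where nad4L (-0.44) is low, and in pad4 replicate 3 nad4L is high (0.75) where ccb382 is low (-0.67).

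Each member was also read against the median of the other 10 mitochondrion-encoded probe sets of the same array. Heights of different probe sets are not comparable, so only the difference between genotypes of such a gap was used. The gap of nad4 was 2.90 ± 0.63 in pad4 est1b and 1.79 ± 0.20 in pad4 (log2, SD, n = 3 each), a difference of 1.11. The 3 pad4 est1b arrays lay above the 3 pad4 arrays. The gap of ccb382 was 1.92 ± 0.74 in pad4 est1b and 0.92 ± 0.50 in pad4, a difference of 1.00, again without overlap. The gap of nad4L was -0.74 ± 0.18 in pad4 est1b and -0.73 ± 0.31 in pad4, so its difference was -0.01. Exact two-sided permutation tests over the arrays (n = 3 each) gave p = 0.1 for nad4 and for ccb382, the smallest this design allows, and p = 1.0 for nad4L. The size of the gaps depended on the comparison genes: against the 3 others with a mean of at least 50 units, the difference was 0.37 for nad4 (exact p = 0.3) and 0.36 for ccb382 (exact p = 0.5). Those 3 were cox1, ccb452 and the other of nad4 and ccb382. Each of these members was thus measured partly against the other, here as with the 10. Without pad4 est1b replicate 1 the differences were 0.75 and 0.57.

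**Figure D4:**
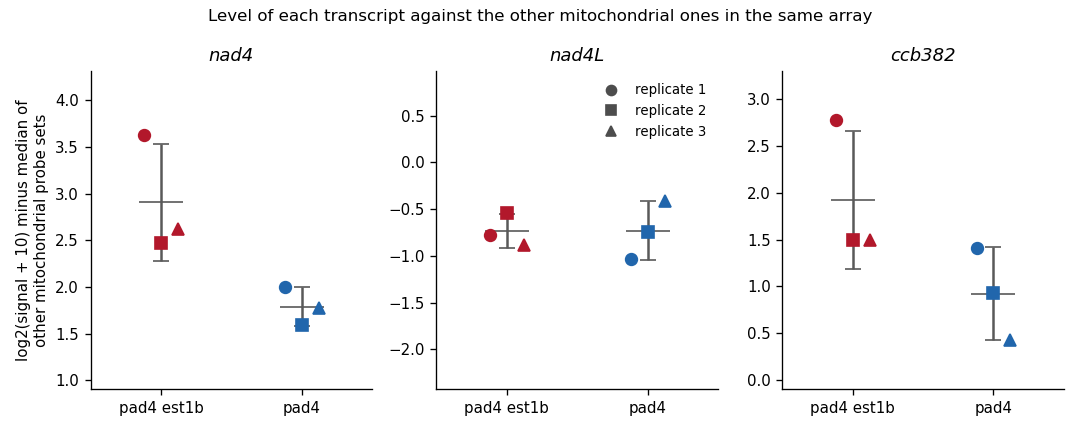
Log2(signal + 10) of nad4, nad4L and ccb382 minus the median of the other 10 mitochondrion-encoded probe sets of the same array, in pad4 est1b (red) and pad4 (blue). Symbols are arrays by replicate number, grey bars are mean ± SD (n = 3), and the 3 panels span the same number of log2 units. The groups are apart for nad4 and ccb382, whose differences are 1.11 and 1.00, and lie together for nad4L, whose difference is -0.01.

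The members nad4 and ccb382 were compared with each other in the same way, a comparison chosen after their values had been seen. The difference nad4 minus ccb382 was 0.11 log2 units larger in pad4 est1b than in pad4 (exact two-sided permutation p = 0.7, n = 3 each), and it was 0.35 without pad4 replicate 3 and -0.030 without pad4 replicate 1. Gaps to nad4L were computed too but are not reported, since that probe set was too dim to serve as a base. Over all 6 tests computed within arrays, the Benjamini-Hochberg adjusted values of these exact tests were 0.20 for nad4 and ccb382, 1.00 for nad4L and 0.84 for nad4 minus ccb382. With 3 arrays against 3 none of these tests could pass a threshold of 0.05.

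The nuclear genes of the same pathways gave small differences. Of 36 listed nuclear complex I subunit genes 23 had a probe set of their own and all 23 were bright enough to test: 8 were higher and 15 lower in pad4 est1b, 0 passed (limma; 0 also at an unadjusted p under 0.05), and the median log2 fold change was -0.03 against 0.03 over all probe sets. The values lay between -0.22 and 0.17, inside those of nad4 and nad4L. AT5G47890 had 486 ± 117 units in pad4 est1b and 605 ± 312 units in pad4 (SD, n = 3 each), and AT3G12260 had 1235 ± 337 units in pad4 est1b and 1472 ± 675 units in pad4. The log2 fold changes were -0.22 for AT5G47890, -0.19 for AT3G12260, 0.15 for AT3G08610 and 0.17 for AT2G27730.

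Of 7 listed nuclear genes of cytochrome c and its maturation 5 could be read. The 2 cytochrome c genes CYTC-1 and CYTC-2, whose product receives haem through the pathway of ccb382, had log2 fold changes of -0.16 and -0.38. CCMH, a partner of the haem lyase, had 35.5 ± 11.2 units in pad4 est1b and 39.6 ± 4.40 units in pad4 (SD, n = 3 each), a log2 fold change of -0.15. The cytochrome c1 gene AT5G40810 had -0.05. All 5 values were negative, from -0.38 to a value near 0 (-0.0035), with a median of -0.15, and 0 passed (limma; 0 also at an unadjusted p under 0.05). Of all probe sets kept, 54.6% had a positive value.

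A list of enzymes that bypass complex I or complex III, with regulators and stress-responsive genes that respond alongside them, held 16 genes. Of these 4 could be read, 3 higher and 1 lower in pad4 est1b, with a median of 0.13 and 0 passing (limma; 0 also at an unadjusted p under 0.05). NDC1, an alternative NAD(P)H dehydrogenase, had 126 ± 14.3 units in pad4 est1b and 97.0 ± 24.5 units in pad4 (SD, n = 3 each), with a log2 fold change of 0.36. Its groups did not overlap, and groups apart in that direction were found for 6.41% of the probe sets kept. NDB1 and NDB2, external enzymes of the same kind, had -0.13 and 0.07. The stress-responsive AT2G21640, which is induced by oxidative stress and is no such enzyme, had 0.20. Of 19 listed factors of mitochondrial transcription, splicing and RNA decay only AT5G46920 (nMAT2), a group II intron maturase, was bright enough to test, with a log2 fold change of -0.27.

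The chloroplast genome holds counterparts of the members: ndhD is related to nad4, ndhE to nad4L, and ccsA serves haem attachment to plastid cytochromes. The log2 fold changes were -0.12 for ndhD, -0.08 for ndhE and -0.02 for ccsA (adjusted p = 1.00 by limma for each). ndhE had 569, 959 and 1240 units in pad4 est1b replicates 1, 2 and 3, against 333, 1225 and 1958 units in pad4 replicates 1, 2 and 3, so its arrays differed far more within a genotype than between genotypes. Over the 6 arrays r was -0.24 between nad4 and ndhD, 0.68 between nad4L and ndhE, and -0.65 between ccb382 and ccsA. For nad4L it was higher with ndhD (0.86) and with ccsA (0.83) than with its counterpart ndhE.

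The probe sets most like each member were taken by Pearson's r over the 6 arrays among the other 6891 probe sets with 1 gene. For nad4 they were AT1G30240 (r = 0.97), GLR1.4, a glutamate receptor-like channel (0.97), AT5G04250 (0.96), UGT85A2, a glycosyltransferase (0.94), and SBT3.5, a subtilase (0.94). For ccb382 they were AT1G13750 (r = 0.99), AT1G21160 (0.98), AT4G17140 (0.97), AT5G07360 (0.97) and CPNIFS, the plastid cysteine desulfurase (0.97). For nad4L they were AT1G19740 and AT2G29020 (r = 0.99 for both), AT1G12845 (0.99), AT4G24730 (0.99) and AT2G27830 (0.99). All 15 are nuclear genes, and no mitochondrial gene was among the 5 nearest to any member. Over 6 arrays and so many probe sets, such values are a description only.

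**Figure D5:**
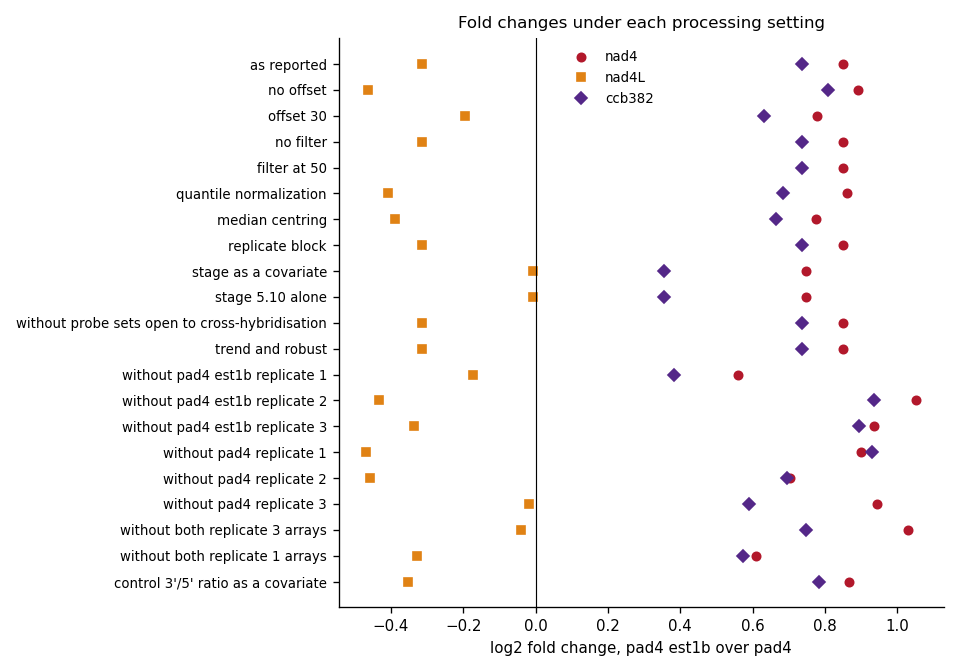
Log2 fold change, pad4 est1b over pad4, of nad4, nad4L and ccb382 (horizontal axis) under the reported setting and each processing alternative (rows). nad4 stays between 0.56 and 1.05 and ccb382 between 0.35 and 0.94, and nad4L lies between -0.47 and -0.01; the filter at 50 units removes nad4L.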

How the data were processed

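Per the labels' protocols, RNA came from RNeasy (Qiagen) columns and was biotin-labelled with 3' IVT Express. The authors deposited probe set intensities on a linear scale; the submitters' processing notes name MAS5 and GCOS, with no version or setting, and detection calls were not used here. Of 22810 probe sets 13513 name 1 gene, 503 several and 8730 none, beside 64 controls. Mitochondrial genes were recognised by symbol or synonym in RefSeq (TAIR10.1), and no coordinates are printed because no genome build is named for the annotation. An offset of 10 units was added before log2; controls and probe sets with a mean under 20 were left out, keeping 12804. limma 3.58.1 (R 4.3.3) compared the genotypes without covariates, with Benjamini-Hochberg adjustment over all probe sets kept. Precision is limited by 3 arrays per group. The members, lists and rules were chosen with earlier results of these data known. Named genes are the members, the other mitochondrial genes, the 5 probe sets most like each member, and up to 4 of each list by p-value. The procedure was tested on simulated data. Same-numbered arrays deviated together for replicates 1 and 3 (correlations of 0.83 and 0.68) but not for replicate 2 (0.00023). These values do not settle whether the numbers mark pairs. The reported fit did not take them as pairs, and a fit with a replicate block is among the alternatives. Alternatives changed the offset, filter, scaling, covariates, arrays, probe sets or eBayes options. Figures were drawn with matplotlib 3.10.9. Tables were made with scipy 1.17.1, numpy 2.4.6 and pandas 2.3.3 under Python 3.11.15. The second mutated gene of the double mutant is not reported here.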

Additional observations from a re-analysis of the deposited data

Results flagged for a closer look

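In addition to the probe sets used above, 12 are assigned to a mitochondrial gene together with another gene and were left unnamed. By a rule whose share over all probe sets was not computed, 2 of them were flagged: the pad4 est1b mean lay above the highest pad4 array. The brighter of these averaged 22.7 units in pad4 est1b (22.9, 24.3 and 20.9 in replicates 1, 2 and 3) and 13.2 units in pad4 (20.2, 7.14 and 12.2 in replicates 1, 2 and 3). The dimmer averaged 5.29 units in pad4 est1b (0.73, 5.56 and 9.60 in replicates 1, 2 and 3) and 2.89 units in pad4 (5.00, 2.89 and 0.76 in replicates 1, 2 and 3). Over the 6 arrays their means were 17.9 and 4.09 units, both under the filter of 20 units. The groups of the brighter one did not overlap. In the other direction, 1 further dim probe set had groups that did not overlap, with 3.67 units in pad4 est1b and 8.69 units in pad4. Shares of such groups were computed only over the probe sets kept: 6.41% with pad4 est1b higher and 3.4% with it lower. The cause was not tested.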

How the results depend on the processing

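Over the 59 values that alternative settings gave for nad4, nad4L and ccb382, every log2 fold change kept its sign and 0 were called by limma. The filter, replicate block, probe set and eBayes alternatives leave the log2 fold change itself unchanged, so there its sign could not turn. Stage as a covariate and stage 5.10 alone gave the same log2 fold changes as each other. The range was 0.56 to 1.05 for nad4, -0.47 to -0.01 for nad4L and 0.35 to 0.94 for ccb382, and adjusted p ran from 0.13 to 1.00. Against 5 probe sets called, 0 were called with no offset (581 at an unadjusted p under 0.05), no filter (1156), stage as a covariate (196), stage 5.10 alone (351) or only probe sets whose names mark no cross-hybridisation (543). Quantile normalization gave 2 and median centring 1. In fits added after the data had been seen, limma called 19 without both replicate 3 arrays, 2 without both replicate 1 arrays and 36 with the control ratio as a covariate. Leaving out single arrays gave 1 without pad4 est1b replicate 1, 9 without pad4 replicate 3 and 0 without any other array (277 to 574 at an unadjusted p under 0.05). A replicate block gave 81 calls by limma, none of them a member: adjusted p was 0.13 for nad4, 0.68 for nad4L and 0.15 for ccb382. The difference of nad4L against the other mitochondrial probe sets, -0.01, turned to 0.022 with an offset of 30. It ran from -0.16 to 0.15 with single arrays left out. Against all the other mitochondrion-encoded probe sets, without the filter, that difference was -0.28 for nad4L, 0.91 for nad4 and 0.80 for ccb382. The exact two-sided permutation p was then 0.3, 0.1 and 0.2. For nad4 minus ccb382 the difference ran from -0.030 to 0.35. Alternatives that leave 1 pad4 array assume that it varies like the others. nad4L could not be read with the filter at 50 units. The limits are 3 arrays per group and the dim signal of nad4L. What nuclear copies of mitochondrial DNA and labelling from poly(A) contributed was not tested.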

Other observations

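Among the probe sets assigned to a mitochondrial gene together with a nuclear one, the one with the largest absolute log2 fold change differed more than any member, in the direction opposite to nad4. It had 102, 140 and 174 units in pad4 est1b replicates 1, 2 and 3, against 199, 290 and 649 units in pad4 replicates 1, 2 and 3. The groups did not overlap, and groups apart in that direction were found for 3.4% of the probe sets kept. Its log2 fold change was -1.25 ± 0.43 (SE), which did not pass (adjusted p = 0.94 by limma). The array of pad4 replicate 3, highest here, was also the highest for nad4L and had the highest control 3'/5' ratio (2.00). The probe set was singled out after its values were seen.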
